A study of Mus musculus with 2 samples.

Results

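The scavenger and apoptotic cell receptors of macrophages were compared between primary and self-renewing macrophages by 10 genes, Msr1, Marco, Cd36, Cd163, Scarb1, Stab1, Cd68, Mertk, Axl and Olr1. They were chosen by name as receptors for modified lipoproteins, polyanions, haemoglobin complexes and dying cells, out of 22910 genes that could be named on the array, and were found through the transcript accession of each probe, which gave 16 of 56598 gene probes. The choice was made with earlier results of these data known, so counts among the 10 only describe them. RNA came from 2 cultures of bone marrow of C57BL/6 mice, labelled male, with no age given. Primary macrophages were adherent cells at day 5 of culture with 100 ng/ml rhM-CSF, and self-renewing macrophages were kept in the same medium and taken after passage 4, when colonies had grown out of a mostly dying culture. By the default of the methods these were bulk cells and not clones. Recombinant human M-CSF was the growth factor of both, and the labels name no genetic change and no other treatment. Each culture was measured on 1 Agilent array with 1 dye, so each difference stands on 1 sample per group and no test was made. In these bulk samples, fewer cells of a type and less RNA per cell cannot be told apart.

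Scavenger receptors bind a wide range of ligands, among them oxidised low-density lipoprotein, bacterial surfaces and the surface of dying cells, and carry them into the cell. Class A receptors such as MSR1 and MARCO have a collagen-like stalk, and class B receptors such as CD36 and SR-BI, encoded by Scarb1, span the membrane at both ends. Removal of apoptotic cells, or efferocytosis, also uses the TAM receptor tyrosine kinases TYRO3, AXL and MERTK. These do not touch the dying cell directly, but bind GAS6 or protein S, which in turn bind phosphatidylserine on its surface.

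The values are spot intensities, corrected for background within each array, and log2 of the intensity less the 75th percentile of the array's gene probes, which was an intensity of 434 in primary and 446 in self-renewing macrophages. A probe is called detected when the scanner software marked it as well above background. A gene is given by its brightest detected probe, and a gene detected on 1 array only has a bound, written as at least N-fold. Such a bound cannot point towards the array without detection, so its direction by itself adds nothing. The scanner's error model put the error of bright spots at 10.0% of their intensity, or 0.20 log2 for a difference of 2 such spots. Where a gene had several detected probes, as 5077 genes did, their log2 differences scattered with an SD of 0.33 (root mean square), and differences under this size are within the error between probes. The array of the primary macrophages went against its label of male, as Xist had an intensity of 487 there and was not detected on the other array, whereas Eif2s3y, Kdm5d, Ddx3y and Uty, all Y-linked, were detected in the self-renewing macrophages only. Of 22 named Y-linked genes, 3 were detected in primary and 8 in self-renewing macrophages. The sex of the donors and the kind of culture cannot be told apart in any value given here.

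Both TAM receptors among the members differed, in opposite directions, with Axl 52.0-fold lower and Mertk 4.68-fold higher in the self-renewing culture. Both class B scavenger receptors were lower in that culture, Cd36 by 7.38-fold and Scarb1 by 3.30-fold. Cd163 and Marco were lower by 3.71-fold and 3.67-fold. Stab1, Msr1 and Cd68 differed by less than 2-fold, and Olr1 had a bound of at least 1.43-fold higher only. All 10 genes were detected on at least 1 array, 9 of them on both. A difference of at least 2-fold towards higher values in the self-renewing culture was seen for 1 of the 10, and for 4.76% of all 15515 detected genes. Towards lower values it was seen for 5 of the 10, and for 8.38% of all. At 5-fold, 2 of the 10 were lower, against 2.93% of all genes, and 0 were higher, against 1.02%. The median difference of the 10 genes was -1.27 log2, beside -0.02 log2 over all detected genes.

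For 8 of the 10 genes the RefSeq table of GRCm38.p6 gives the promoter, and Msr1 and Scarb1 are not among them. The 250 bases before the annotated start are shown for Mertk, the 1 member higher by 2-fold or more, for Marco, which was lower, and for Cd68, which differed little. For Cd36, Olr1 and Axl the listed start lies well inside the outermost annotated start, by 191 bases for Axl, and for Axl the 59 bases before the outermost start are shown. Each runs 5′ to 3′ on the strand of the gene. Capitals mark matches to GAGGAA, the core bound by PU.1, to TGANTCA, the AP-1 site, and to GGGCGG, the GC box, each searched on both strands, and no 2 matches overlapped.
Mertk, chr2:128698665-128698914, plus strand: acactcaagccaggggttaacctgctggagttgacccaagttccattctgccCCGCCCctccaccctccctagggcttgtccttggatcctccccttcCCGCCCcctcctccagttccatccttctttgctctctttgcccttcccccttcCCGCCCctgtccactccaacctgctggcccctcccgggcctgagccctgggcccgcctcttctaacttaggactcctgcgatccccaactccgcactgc
Axl, chr7:25788925-25788983, minus strand: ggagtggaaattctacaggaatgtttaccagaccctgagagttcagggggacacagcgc
Marco, chr1:120505025-120505274, minus strand: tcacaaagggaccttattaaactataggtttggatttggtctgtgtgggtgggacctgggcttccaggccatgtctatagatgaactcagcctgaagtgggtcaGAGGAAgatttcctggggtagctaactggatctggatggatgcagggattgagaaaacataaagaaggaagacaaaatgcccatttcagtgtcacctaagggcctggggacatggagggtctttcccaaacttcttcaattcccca
Cd68, chr11:69666171-69666420, minus strand: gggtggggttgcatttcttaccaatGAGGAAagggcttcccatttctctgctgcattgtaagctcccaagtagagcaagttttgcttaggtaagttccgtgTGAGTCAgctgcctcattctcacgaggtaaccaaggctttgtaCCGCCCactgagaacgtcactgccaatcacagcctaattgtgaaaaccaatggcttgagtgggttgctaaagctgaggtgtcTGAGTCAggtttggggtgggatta

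Over the full 250 bases before the listed starts, GAGGAA was found in 5 of the 8 members, those of Marco, Stab1, Cd68, Olr1 and Axl, and in 23.3% of all 32851 windows of the same length. TGANTCA was found for Cd68 and Olr1, and in 6.75% of all windows. The GC box was found for Cd36, Cd68, Mertk and Axl, with 3 matches for Mertk, and in 32.7% of all windows. The TATA box, TATAAA, was in 0 of the 8 windows and in 12.4% of all. The Axl matches to GAGGAA and the GC box are not in the 59 bases shown, so they reach past the outermost annotated start. The listed starts of Cd36 and Olr1 lie 53063 and 185 bases inside their outermost ones, so matches there need not lie in a promoter. All matches are letters in a window, and no binding was measured.

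Axl encodes the TAM receptor that is known to be raised in macrophages by interferons and Toll-like receptor ligands. Its brighter probe had an intensity of 5025 in primary and 99.3 in self-renewing macrophages, giving -5.70 log2. The signal in the self-renewing macrophages was still detected, at a level of -2.17 log2 relative to the 75th percentile, so that this value is a difference and not a bound. A second, dimmer Axl probe read 51.1 in primary macrophages but was not detected on the other array, with an intensity of 2.83 there, which made it at least 3.99-fold lower. A bound of this kind cannot come out higher, so the dim probe is no separate sign of the direction. The mean over both Axl probes was -3.85 log2, which counts the bound as a value and so is itself only a limit.

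Mertk encodes the TAM receptor used by many tissue macrophages for the uptake of apoptotic cells. It was measured by 1 probe, with an intensity of 524 in primary and 2520 in self-renewing macrophages, a difference of 2.23 log2. Over the alternative ways of processing it ranged from 2.07 to 2.41 log2. Tyro3, the third TAM receptor and not a member, was dim, with an intensity of 40.7 in primary macrophages, and was not detected in the self-renewing macrophages, where it was at least 3.18-fold lower, a value that did not reach 2-fold with the model-based background correction. This bound could not have come out higher, so the direction of Tyro3 adds nothing, and a second Tyro3 probe was detected on neither array. Among the TAM receptors detected on both arrays, Mertk was higher and Axl lower in the self-renewing culture.

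Cd36 encodes a class B receptor that takes up oxidised lipoproteins and long-chain fatty acids and binds apoptotic cells together with thrombospondin. Its 1 probe had an intensity of 16308 in primary and 2273 in self-renewing macrophages, a difference of -2.88 log2, which ranged from -2.90 to -2.70 log2 over the alternatives. Scarb1 encodes SR-BI, the receptor for high-density lipoprotein. Its brighter probe read 6361 in primary and 1983 in self-renewing macrophages, and its dimmer probe 373 and 115. The probes, designed on different transcripts, gave -1.72 and -1.74 log2, a gap smaller than the error between probes.

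Marco encodes a class A receptor that binds bacteria and particles and is found on subsets of macrophages. Its signal was 2217 in primary and 621 in self-renewing macrophages, a difference of -1.88 log2. Msr1, the other class A receptor, went the other way by a smaller amount. Its brighter probe had an intensity of 2559 in primary and 3927 in self-renewing macrophages, or 0.58 log2, and its other probe read 2299 and 3117, or 0.40 log2. Both differences for Msr1 were larger than the error between probes, which holds no spread between cultures, and neither reached 2-fold.

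Cd163 encodes the receptor for complexes of haemoglobin and haptoglobin. Its detected probe was dim in both cultures, with an intensity of 242 in primary and 67.2 in self-renewing macrophages, a difference of -1.89 log2. A second Cd163 probe was detected on neither array. With a model-based background correction, which draws dim signals together, the Cd163 difference was -1.27 log2. Stab1 encodes stabilin-1, a receptor for phosphatidylserine and for acetylated lipoprotein. It had an intensity of 21589 in primary and 12663 in self-renewing macrophages, a difference of -0.81 log2, or 1.75-fold lower.

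Cd68 encodes macrosialin, a heavily glycosylated protein of endosomes and lysosomes that is used as a marker of macrophages. Its probes were bright in both cultures, with an intensity of 89479 in primary and 112459 in self-renewing macrophages for the brighter and 29892 and 39816 for the other. The differences were 0.29 and 0.37 log2, on either side of the error between probes. Olr1 encodes LOX-1, a lectin-like receptor for oxidised lipoprotein that is known best from endothelial cells. It was not detected in primary macrophages, with an intensity of 4.11, and was barely detected in self-renewing macrophages, at 17.4. The bound was at least 1.43-fold higher, and a second Olr1 probe was detected on neither array. On these arrays Olr1 was therefore close to the limit of detection, where an intensity of 13.2 was the lowest that the scanner software marked as above background on that array.

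**Figure D1:**
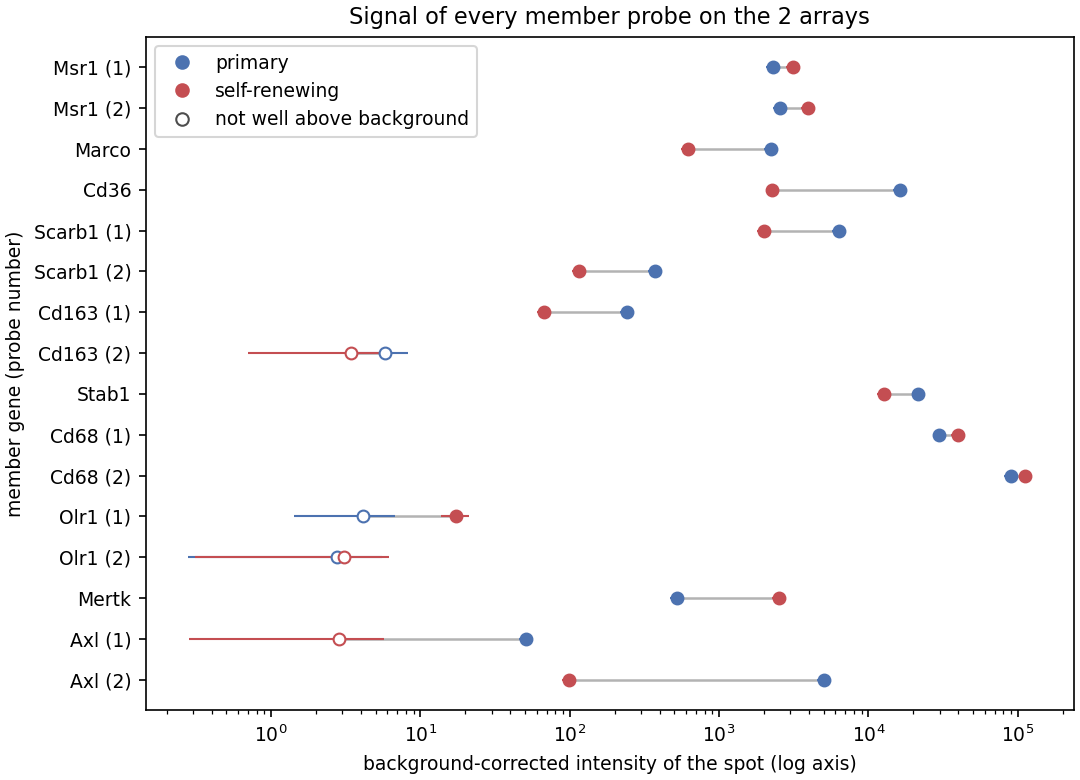
Background-corrected spot intensity (log axis) of the 16 probes of the 10 genes in primary (blue) and self-renewing (red) macrophages, 1 array each; bars are the error given by the scanner software, shortened where they would reach 0, open points were not well above background, and numbers in brackets tell probes of a gene apart. The brighter Axl probe goes from 5025 in primary down to 99.3 in self-renewing macrophages, and the Mertk probe from 524 up to 2520.

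**Figure D2:**
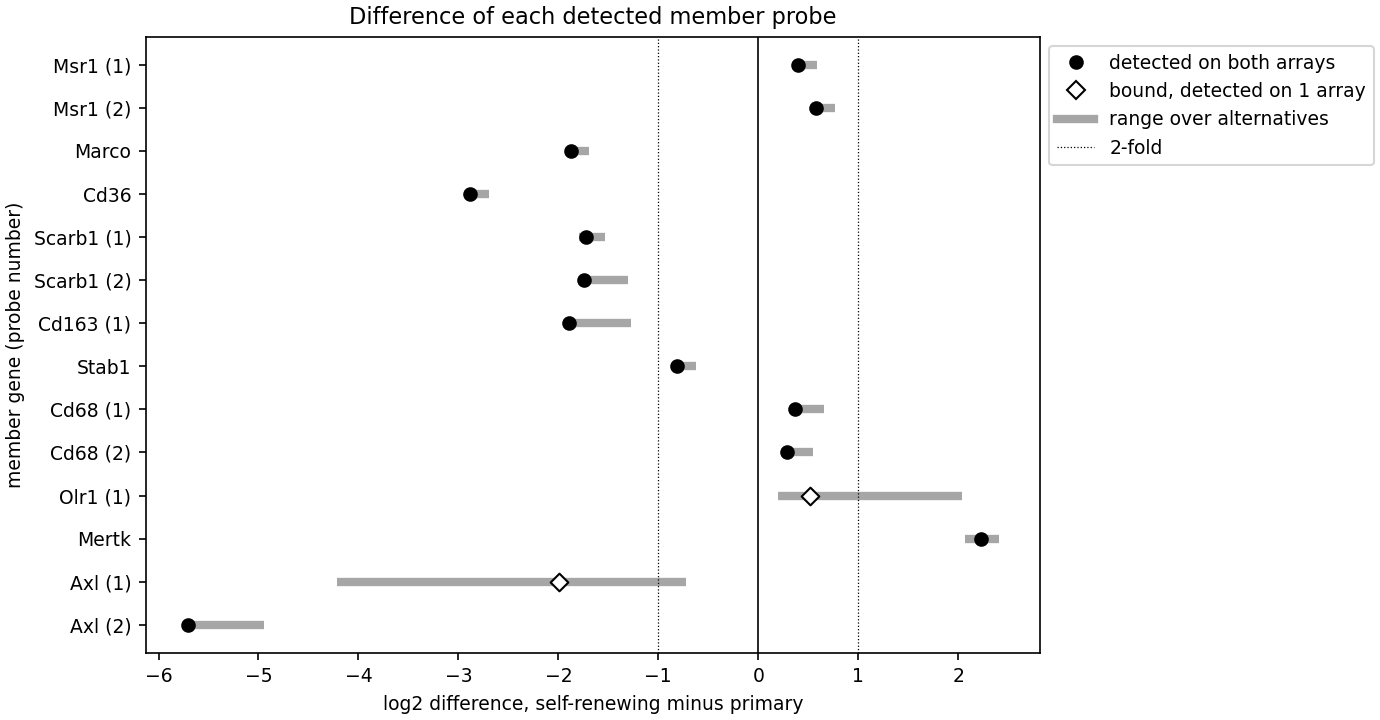
The log2 difference between self-renewing and primary macrophages for the 14 detected probes, with the range over the alternative ways of processing in grey and bounds as diamonds. Values left of the dotted line at -1 are at least 2-fold lower, and those of the brighter Axl probe, Cd36, Marco, Cd163 and both Scarb1 probes stayed there under every alternative tried, while the dim Axl probe did not.

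Taken probe by probe, 14 of the 16 probes were detected on at least 1 array, 12 on both and 2 on neither. By 2-fold or more, 1 of the 14 was higher, as were 4.61% of all 35849 detected probes, and 7 were lower, as were 6.54% of all. Of the 4 genes with several detected probes, Msr1, Scarb1 and Cd68 had all probes detected on both arrays, and these moved in the same direction within a gene. For Axl, the dim probe counted among the 7 was detected in primary macrophages only. Its bound could not have come out higher, so its direction adds nothing.

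The bridging molecules that link apoptotic cells to these receptors differed in both directions. From a list of 12, 10 were detected, with a median of 0.67 log2, and by 2-fold or more 5 were higher in the self-renewing culture and 2 were lower. Over all detected genes 4.76% were higher and 8.38% lower, and these shares stand beside the counts of each further list as well. Gas6, the ligand of all 3 TAM receptors, had an intensity of 35562 in primary and 85616 in self-renewing macrophages, or 2.34-fold higher. Pros1, which encodes protein S, the ligand of MERTK and TYRO3, differed by 0.11 log2, and its other probe by -0.13 log2. Gas6 and Mertk were thus higher in the same culture in which Axl was lower.

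The subunits of C1q, which opens the classical complement pathway and also coats apoptotic cells, were all higher in the self-renewing macrophages. C1qa had an intensity of 3706 in primary and 51220 in self-renewing macrophages, or 13.4-fold higher, C1qc was 3.91-fold higher and C1qb 3.20-fold higher. Among the molecules that bridge phosphatidylserine to the integrins αvβ3 and αvβ5, Mfge8 was 2.11-fold lower, with an intensity of 17652 in primary and 8610 in self-renewing macrophages. Edil3, its homologue, was 4.30-fold higher, from an intensity of 215 to 951, and both its probes were higher. For Mfge8 the difference did not reach 2-fold with the authors' scaled values or after quantile normalization.

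Thbs1 encodes thrombospondin-1, a ligand of CD36. It was not detected in the self-renewing macrophages and was at least 19.5-fold lower there, with an intensity of 250 in primary macrophages. Its second probe was also detected in primary macrophages only. Neither bound could have come out higher, so the direction of the second probe adds nothing. With the model-based background correction Thbs1 was at -2.25 log2. In the self-renewing macrophages Cd36 was thus lower by a measured difference, and Thbs1 by a bound only. Anxa1, which encodes a phosphatidylserine-binding protein, differed by -0.67 log2, and Lgals3, which encodes galectin-3, a ligand of MERTK, by -0.08 log2, where its other probe gave -0.63 log2. Ptx3 and Apoh were detected on neither array.

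**Figure D3:**
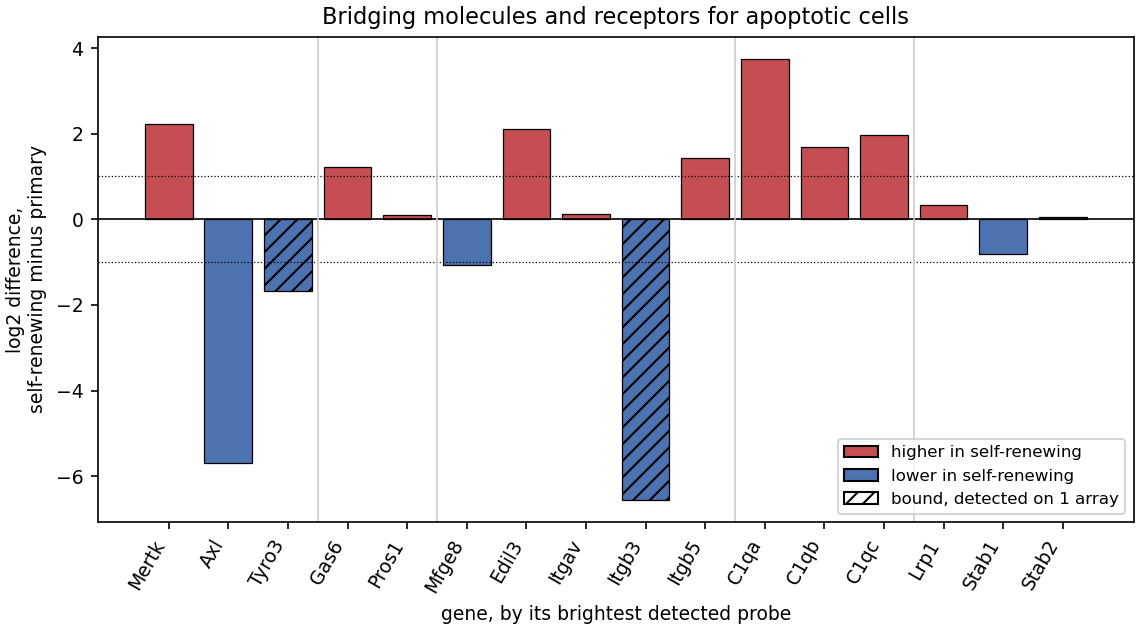
The log2 difference between self-renewing and primary macrophages, by the brightest detected probe, for the TAM receptors, their ligands Gas6 and Pros1, the integrin bridges Mfge8 and Edil3 with integrin subunits, the C1q subunits, and other receptors; hatched bars are bounds. Mertk at 2.23 and Axl at -5.70 log2 stand on opposite sides, and the C1q subunits lie between 1.68 and 3.75 log2.

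Of 20 other receptors for apoptotic cells, 17 were detected, with a median of 0.05 log2, and 1 was higher and 4 were lower by 2-fold or more. The 1 higher gene is near the share of 4.76% over all detected genes, and 8.38% of all were lower. Itgb5, the β5 integrin subunit, was 2.71-fold higher, while Itgb3, the β3 subunit, was at least 94.2-fold lower by a probe that fell short of detection in the self-renewing culture. By the other Itgb3 probe, which was dimmer, the value was -1.45 log2. Itgav, their shared α subunit, differed by 0.12 log2. Scarf1 and Scarf2, scavenger receptors with EGF-like repeats, were 10.5-fold and 11.6-fold lower, with intensities of 551 and 401 in primary macrophages and 54.3 and 35.5 in self-renewing macrophages. With the model-based background correction Scarf1 was at -2.45 and Scarf2 at -2.24 log2. Tyro3, the fourth of those lower, was then at -0.54 log2 and no longer 2-fold lower, so that 3 genes of the list were lower, as also with only probes detected on both arrays, where Tyro3 drops out. With no filter on background, and with the mean over probes of a gene, 5 were lower. Stab2 differed by 0.05 log2 by its brighter probe. Its second probe, detected in primary macrophages only, was at least 6.50-fold lower. Timd4, Havcr1 and Megf10 were detected on neither array.

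Of 14 other scavenger receptors, 12 were detected, with a median of -0.12 log2, and 3 were higher and 2 lower by 2-fold or more. Cd207, which encodes langerin, a lectin of Langerhans cells, was 11.7-fold higher, from an intensity of 131 to 1574, or 3.55 log2, and 3.03 log2 with the model-based background correction. Fcgr2b, the inhibitory Fc receptor, and Cxcl16, whose membrane form binds oxidised lipoprotein, were 3.66-fold and 2.88-fold higher, each by both of its probes. Cd5l, which encodes a secreted scavenger receptor protein of macrophages, was 9.28-fold lower, from an intensity of 28112 to 3115.

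The machinery of engulfment and phagosome maturation that lies behind these receptors differed little. All 25 genes of that list, among them Elmo1, Dock1, Rac1, Rab7 and Lamp1, were detected on both arrays, and 0 differed by 2-fold or more. Their differences lay between -0.58 and 0.82 log2, with a median of 0.18 log2. The highest was that of Abca1, a cholesterol exporter that also acts in the clearance of apoptotic cells, whose other probe gave 1.05 log2. With the authors' scaled values Abca1 reached 1.01 log2, and 1 gene of the list was then at least 2-fold higher.

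**Figure D4:**
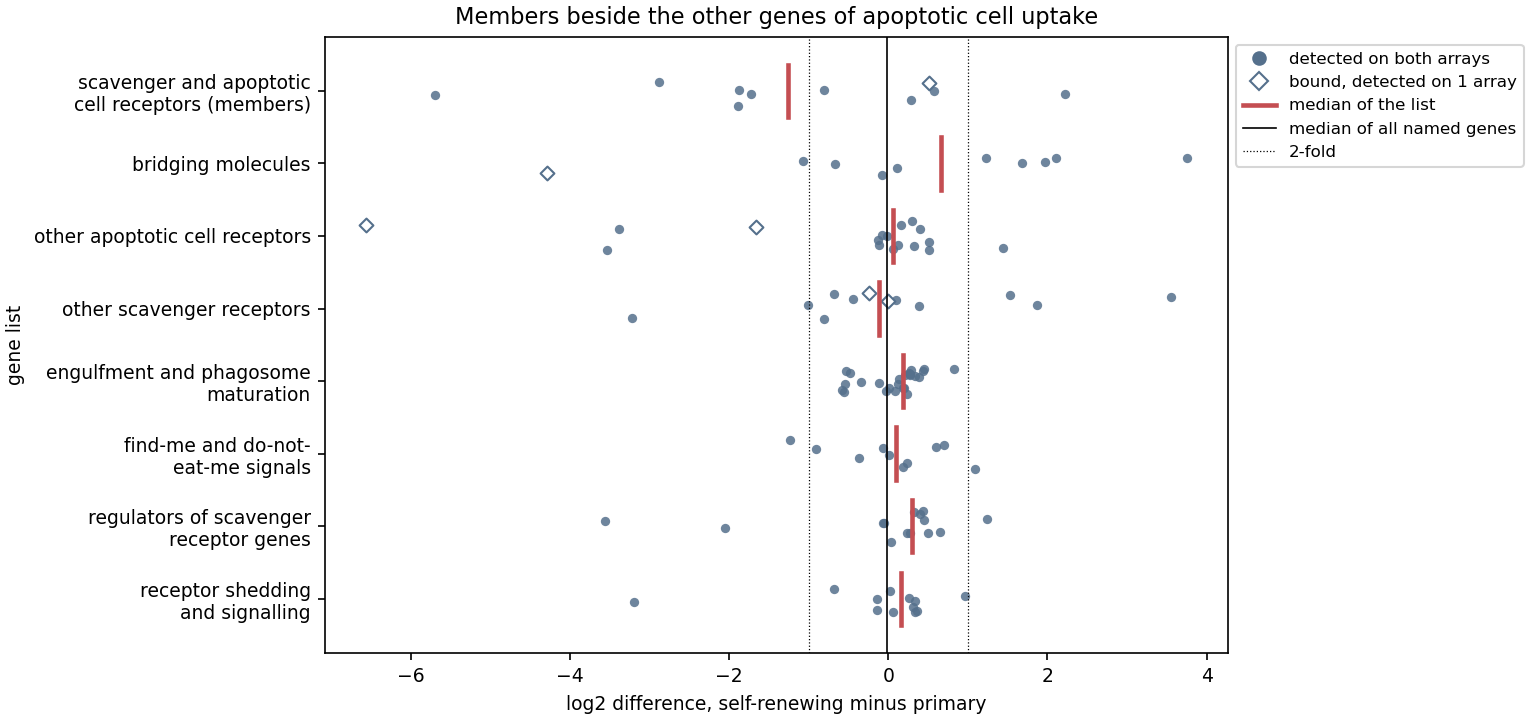
The log2 difference between self-renewing and primary macrophages for each detected gene of the 8 lists, points for genes detected on both arrays and diamonds for bounds, with the median of each list in red and that of all detected genes as a black line; points are spread vertically only for legibility. The 10 members have the lowest median, -1.27 log2, the bridging molecules the highest, 0.67 log2, and the engulfment genes, as plotted, lie within 2-fold.

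Markers of other cells moved between the cultures as well. All 10 macrophage markers on a list, among them Adgre1 and Csf1r, were detected on both arrays, with a summed intensity of 548661 in primary and 776493 in self-renewing macrophages. Fcgr1, of the same list, was 3.39-fold lower in the self-renewing culture, and Cybb 2.32-fold higher. Of 9 neutrophil markers with a named probe, 8 were detected in primary and 4 in self-renewing macrophages, with summed intensities of 51678 and 2908, and S100a8, S100a9, Ngp and Ltf were not detected in the latter. Most of the sum in self-renewing macrophages was Elane, with an intensity of 3602 in primary and 2671 in self-renewing macrophages. Of 7 monocyte markers, 6 and 3 were detected, with sums of 12269 and 29653, the larger owing to Ly6c2 at 29296. Ccr2, detected on both arrays, was 99.6-fold lower in the self-renewing culture, from an intensity of 3634 to 37.5. Plac8 and F13a1 were detected in primary macrophages only. The part of neutrophils and monocytes in the differences of the 10 receptors was not tested. For dendritic cells 6 and 3 of 8 were detected, with sums of 89373 and 92638, nearly all from Siglech. For osteoclasts 4 and 4 of 5 were detected, with sums of 5262 and 2448, the latter mostly from Ctsk. Ctsk went from an intensity of 1226 in primary to 2268 in self-renewing macrophages. Dcstamp went from 2724 to 33.7, Acp5 from 1131 to 48.0, and Ocstamp was 1.88-fold lower. For megakaryocytes 4 and 1 of 4 were detected, with sums of 112031 and 24199, nearly all from Pf4. For B cells 4 and 2 of 5 were detected, with sums of 835 and 128, for T cells 4 and 4 of 5, with sums of 3525 and 3494, and for erythroid cells 2 and 2 of 4, with sums of 589 and 256. For endothelial cells 3 and 2 of 5 were detected, with sums of 346 and 304, for mast cells or basophils 2 and 1 of 4, with sums of 33.0 and 24.0, and for fibroblasts or stromal cells 1 and 1 of 6, where Col1a1, Pdgfra, Pdgfrb, Dcn and Lum were detected on neither array. The fibroblast sums, 52.9 and 88.1, came from Col1a2 alone.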

How the data were processed

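Total RNA of each culture was labelled with Cy3 and hybridised to an Agilent SurePrint G3 mouse array, both on the same slide and scanned together. The authors deposited each scanner file (Feature Extraction 11.5.1.1), whose intensity is corrected for background and not scaled between arrays, and a table holding the same intensity times 1.07 (primary) and 1.19 (self-renewing). How these constants were chosen is not given in the sources used here. Flags in the deposited files mark detection, saturation (0 spots) and outliers.

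Control and outlier spots were left out, spots of a probe were averaged as log2 values, and the 75th percentile of the array was subtracted. Accessions named 32988 of 56598 probes (58.3%) by RefSeq of GRCm38.p6. The array was designed on another build, so no probe coordinates are given. For a probe detected on 1 array, the bound used its own intensity on the other or the lowest detected intensity there, whichever was higher. No test was made, since 1 array per group gives no spread. The members and lists were chosen with earlier results of these data known. The rule named all members, all bridging molecules and, of other lists, genes different by 2-fold or more, and further genes and markers in the text were chosen after their values were seen. Some genes of the lists are counted but not reported here by name. The calculation of differences was tried on simulated data in which both arrays detected the same probes, so bounds were not tried. Calculations used Python 3.11.15, numpy 2.4.6, pandas 2.3.3, R 4.3.3 and limma 3.58.1. The closing section gives the alternatives.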

Additional observations from a re-analysis of the deposited data

How the results depend on the processing

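No paired analysis was possible because there was only 1 array for primary and 1 for self-renewing macrophages. Values that shifted by under 0.33 log2, the SD between probes, were taken as unmoved. The count of members at least 2-fold lower was 5 under all 8 alternatives, and of the values of member probes under them 90 were unmoved and 6 moved. With no filter on background 2 members were at least 2-fold higher, as Olr1 then stood at 2.04 log2, by a signal not detected in primary macrophages. With only probes detected on both arrays, the members' median was -1.72 log2 over 9 genes, since Olr1 drops out, and that of the bridging molecules 1.23 log2, since Thbs1 drops out. That of the bridging molecules was 0.12 log2 with no filter. The median of the monocyte markers was 0.10 log2 with only probes detected on both arrays, against -4.64 log2, since Plac8, F13a1 and Fn1 drop out. The authors' scaled values raise every gene of the self-renewing macrophages by 0.19 log2, and of all genes at least 2-fold different 49.2% were then higher, in place of 36.2%. Of all genes, 739 were higher and 1300 lower by 2-fold or more as reported, 429 and 750 with the normexp background correction, 1192 and 2336 with no filter, and 588 and 782 with only probes detected on both arrays, where fewer genes can be called. With the normexp correction the brighter Axl probe was at -4.95 log2, the dim one at -0.73, Cd163 at -1.27 and the dim Scarb1 probe at -1.30 log2, as its offset of 50 draws dim signals together by construction. Dim signals set the limit for Olr1, Cd163 and the second Axl probe.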

Other observations

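Among 14 regulators known to act on scavenger receptor genes, all were detected on both arrays, with a median of 0.29 log2, and by 2-fold or more 1 was higher in the self-renewing culture and 2 were lower. Over all detected genes 4.76% were higher and 8.38% lower, so these counts are too small to set the list apart. Nr1h3, which encodes the oxysterol receptor LXRα, had an intensity of 855 in primary and 74.5 in self-renewing macrophages and was 11.8-fold lower, with -3.32 log2 by its other probe and -2.74 log2 with the normexp background correction. Pparg, which encodes a fatty acid receptor known to act on Cd36, was 4.14-fold lower, from an intensity of 5021 to 1247. Rxra, which encodes their shared partner, was 2.36-fold higher by its brighter probe, while its other probe gave 0.35 log2 and the mean over both was 0.80 log2. Spi1, which encodes PU.1, differed by 0.23 log2. No relation of these regulators to the receptors was tested.

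Of 10 genes for the signals that draw macrophages to dying cells or spare living ones, Cx3cr1, the fractalkine receptor, was 2.13-fold higher and Panx1, which encodes a channel that releases nucleotides, 2.35-fold lower, and the median was 0.10 log2. Sirpa and Cd47, the receptor and ligand of the signal that spares living cells, differed by 0.18 and -0.06 log2. Of 14 genes for receptor shedding and signalling, 12 were detected and Il10, the anti-inflammatory cytokine, was the 1 at least 2-fold different, 9.18-fold lower from an intensity of 215 to 24.1, and at -1.62 log2 with the normexp background correction. With the authors' scaled values Socs3, an inhibitor of cytokine signalling, was also at least 2-fold different, at 1.15 log2 in place of 0.96 log2. Adam17, which encodes the protease that sheds MERTK from the cell surface, differed by 0.31 log2, and the median of the list was 0.16 log2.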
